A study of Mus musculus with 19 samples.

Results

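The 10 genes described here encode the negative feedback on the extracellular signal-regulated kinases (ERK) and one of the readouts of ERK activity. They are the dual-specificity phosphatases Dusp1, Dusp4, Dusp5 and Dusp6, the Sprouty genes Spry1, Spry2 and Spry4, the Sprouty-related genes Spred1 and Spred2, and the transcription factor Etv5. The rule takes them by name and uses none of their values, but the 10 genes were chosen with earlier results of these data known. All 10 are among the 20408 genes of the table and among the 14845 genes that had enough reads to be tested. Bulk RNA-Seq was performed on the suprarenal abdominal aorta (SRA) of 19 male mice: 5 IKKβ+/+ mice with Ang II and 5 with saline, and 5 IKKβ-/- mice with Ang II and 4 with saline. The labels call the genotypes wild-type (WT) and KO. All 4 groups lacked ApoE, were on a C57BL6 background, carried the SMA-CreERT2 transgene and received tamoxifen per the study's methods. The IKKβ-/- mice were Ikkβ Flox/Flox, so that Ikbkb, which encodes the kinase IKKβ, was deleted in cells in which the Acta2 promoter drives CreERT2, mainly smooth muscle cells. The labels give an age of 8 weeks, which per the study's methods is when tamoxifen was started, so that the mice were older when infused. Saline or Ang II was delivered by osmotic pumps for 24 h. The labels give the dose of Ang II as 500 to 1000 ng/min/kg, and the methods for these RNA libraries give the upper of these doses.

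Receptors for growth factors and for Ang II activate Ras, which starts a cascade of kinases that ends in ERK. ERK in turn induces genes that damp the cascade, so their mRNAs are widely used as readouts of the pathway. Sprouty and Spred proteins act near Ras and Raf, and dual-specificity phosphatases remove phosphate from the MAP kinases themselves. In vascular smooth muscle cells, Ang II is known as an activator of ERK.

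Among the 10 genes, the Ang II response that passed the test was seen in IKKβ-/- mice. Dusp1 and Spry2 fell and Dusp4 rose there, 3 of the 10 genes, where 5.29% of all genes tested were called. These calls are those of limma, the test used throughout unless another is named. With limma none of the 10 genes passed in IKKβ+/+ mice, where 8.66% of all genes were called. Both edgeR and DESeq2 called Dusp5 there, among 1373 and 1887 of the 14845 genes tested. The difference between the responses of the genotypes passed for none of the 10 with limma or edgeR, which called 0 and 3 genes in all. With DESeq2 it passed for Dusp1, Dusp4, Dusp5 and Spry2, among 279 genes in all.

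Promoter sequences are shown for Dusp1 and Spry2, the 2 genes that fell, and for Dusp5, which had the largest size of change with limma in IKKβ+/+ mice. They are RefSeq promoters of GRCm38.p6, from 250 bases before to 50 bases after the annotated start, written 5′ to 3′ on the strand of the gene. The capitals mark the cAMP response element TGACGTCA in Dusp1 and CArG boxes, the sites bound by serum response factor, in Dusp5.
Dusp1 promoter, chr17:26508423-26508722, minus strand: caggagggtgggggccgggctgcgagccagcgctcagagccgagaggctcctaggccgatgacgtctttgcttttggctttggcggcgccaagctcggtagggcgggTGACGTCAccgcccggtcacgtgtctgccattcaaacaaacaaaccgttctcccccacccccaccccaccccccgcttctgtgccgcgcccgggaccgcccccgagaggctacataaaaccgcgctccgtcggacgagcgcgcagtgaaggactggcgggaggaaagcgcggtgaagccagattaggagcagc
Spry2 promoter, chr14:105896770-105897069, minus strand: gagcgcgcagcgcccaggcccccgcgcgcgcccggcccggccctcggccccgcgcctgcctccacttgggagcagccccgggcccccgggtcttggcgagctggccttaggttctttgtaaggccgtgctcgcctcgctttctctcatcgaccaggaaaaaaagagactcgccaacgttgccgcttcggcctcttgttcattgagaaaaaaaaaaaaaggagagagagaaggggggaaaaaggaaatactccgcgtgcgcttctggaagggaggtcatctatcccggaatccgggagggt
Dusp5 promoter, chr19:53528895-53529194, plus strand: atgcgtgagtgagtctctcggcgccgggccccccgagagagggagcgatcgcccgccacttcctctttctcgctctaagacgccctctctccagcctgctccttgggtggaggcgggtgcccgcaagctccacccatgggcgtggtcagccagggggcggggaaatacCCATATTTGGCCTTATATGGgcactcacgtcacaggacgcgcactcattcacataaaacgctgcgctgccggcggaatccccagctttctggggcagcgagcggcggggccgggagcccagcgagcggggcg
A promoter was found for 8 of the 10 genes. Both strands were searched for the cAMP response element, for the AP-1 sites TGACTCA and TGAGTCA, for the ETS site CCGGAAG, for the CArG box and for the NF-κB site. Dusp1 held 1 cAMP response element, 143 to 136 bases before the start. This element occurred in 1.79% of all 32851 promoters. Dusp5 held 2 CArG boxes that abut without overlapping, at 82 to 73 and 72 to 63 bases before the start. A CArG box occurred in 1.63% of all promoters. The promoters of Dusp6, Spry1, Spry2, Spred1, Spred2 and Etv5 held none of these letters, which occurred in 5.2% of all promoters for the AP-1 sites, 8.86% for the ETS site and 8.46% for the NF-κB site.

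The libraries held from 11382573 to 19906694 reads on genes. Ikbkb had 673.4 ± 78.6 (SD, n = 5) normalized counts in saline-infused and 725.9 ± 46.3 (SD, n = 5) in Ang II-treated IKKβ+/+ mice, against 515.2 ± 74.3 (SD, n = 4) and 547.7 ± 87.9 (SD, n = 5) in IKKβ-/- mice. Of the marker lists of cell types, smooth muscle genes had the highest summed level, 304400 to 633500 normalized counts per mouse. Fibroblast markers summed to 63040 to 154300, endothelial markers to 7298 to 36000 and adipocyte markers to 867 to 25080. In such bulk samples, fewer cells of a type and less RNA per cell cannot be told apart. The labels state no batch, and a batch that ran with the groups cannot be told apart from them.

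Levels of the 10 genes were compared with one another per kilobase of exon. In saline-infused IKKβ+/+ mice Dusp1 stood first, at a mean of 798 normalized counts per kilobase. Spred1 (155), Dusp6 (138), Spry1 (127), Spry2 (104) and Spred2 (89.1) followed on the same scale, and the mice of each neighbouring pair in this series overlapped. Spry4 (42.4), Etv5 (30.8) and Dusp5 (24.7 normalized counts per kilobase) came next, again with overlap between neighbours. Dusp4 was last at 4.95. The mice did not overlap between Dusp1 and Spred1, between Spred2 and Spry4, or between Dusp5 and Dusp4.

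**Figure D1:**
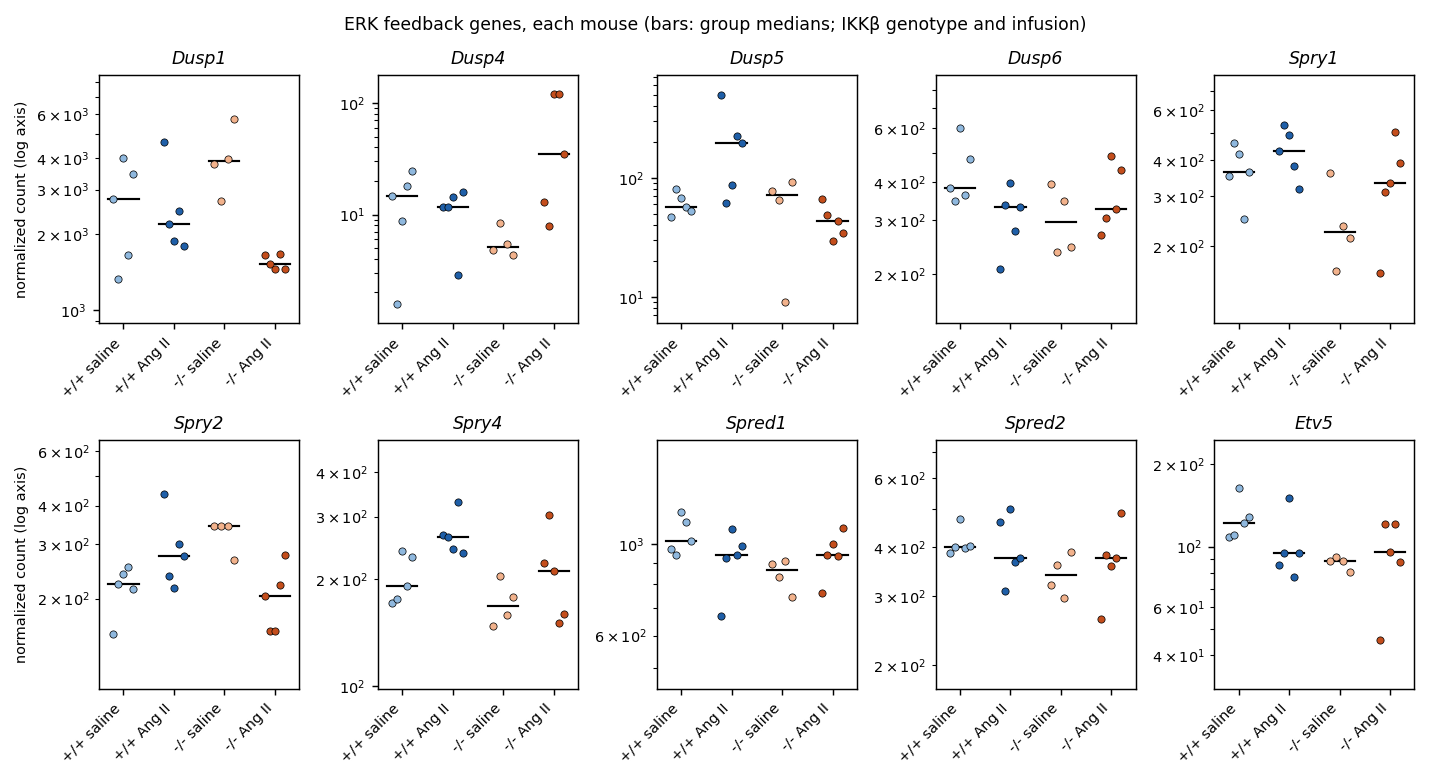
Normalized counts (log axis) of the 10 genes in each of the 19 mice, by IKKβ genotype and infusion, with bars at the group medians. The 5 Ang II-treated IKKβ-/- mice lie below all others of their genotype for Dusp1, and for Dusp4 2 of them stand at 120.4.

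Dusp1 (ENSMUSG00000024190.7, chromosome 17 of GRCm38, 26505590 to 26562128) encodes a nuclear phosphatase that inactivates p38, JNK and ERK and that is induced within minutes by stress. In saline-infused IKKβ-/- mice it had 3775, 2699, 3980 and 5721 normalized counts. In Ang II-treated IKKβ-/- mice it had 1651, 1522, 1454, 1662 and 1458. The groups did not overlap, and the Ang II-treated mice lay within a narrow range. The means were 4043 ± 1251 (SD, n = 4) and 1549 ± 102 (SD, n = 5), a log2 fold change of -1.34 ± 0.30 (SE) on the log2(normalized count + 1) scale (limma, adjusted p = 0.0195, Benjamini-Hochberg). Dusp1 passed in each of the 19 fits that left out a mouse, with log2 fold changes between -1.51 and -1.15.

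In IKKβ+/+ mice the level of Dusp1 varied more than the infusion moved it. Saline-infused mice had 2754, 1327, 4011, 1649 and 3473 normalized counts, and Ang II-treated mice had 4629, 2184, 1875, 2470 and 1786. The groups overlapped over nearly their whole range, with a log2 fold change of -0.001 and a 95% interval of -0.59 to 0.58. The difference between the Ang II effects, IKKβ-/- minus IKKβ+/+, was -1.33 ± 0.41 (SE) and did not pass (limma, adjusted p = 0.279, Benjamini-Hochberg). With saline, Dusp1 was 0.69 ± 0.30 (SE) higher on the log2 scale in IKKβ-/- than in IKKβ+/+ mice, which did not pass (adjusted p = 0.21) except with array quality weights (0.82, adjusted p = 0.0771). With Ang II it was lower in all 5 IKKβ-/- mice than in all 5 IKKβ+/+ mice, at -0.65 ± 0.28 (SE, adjusted p = 0.304). The annotated span of Dusp1 overlaps Ergic1, which lies on the other strand, and the libraries were stranded per the study's methods.

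The immediate early genes, which are transcribed within minutes of a stimulus, moved with Dusp1. Of the 12 on the list, 9 fell with Ang II in IKKβ-/- mice and none rose, against 2.69% of all genes called lower. Atf3, a stress-induced transcription factor, fell by 4.18 on the log2 scale, Fos fell by 2.92 and Fosb fell by 2.88. Summed over the list, saline-infused IKKβ-/- mice had 14780 to 45800 normalized counts and Ang II-treated ones 5196 to 5653. In IKKβ+/+ mice Fos alone passed, lower with Ang II, and the summed levels were 7436 to 32480 with saline and 6684 to 19230 with Ang II. The difference between the Ang II effects passed for none of the 12 with limma. With saline, 10 of the 12 were higher and 2 lower in IKKβ-/- than in IKKβ+/+ mice, with 1 called, where 5.47% of all genes were called. The list does not hold Dusp1. Within the groups, Dusp1 and the score of the list, the mean log2 deviation of its genes, had a Pearson r of 0.74 over the 19 mice (Spearman 0.68, and r = 0.67 without the 2 mice farthest from the median of the score). The genes most like Dusp1 in this respect were Btg2 (r = 0.87), Zfp36 (0.86) and Jun (0.84), all 3 of them on the list. With the score as a covariate, a fit chosen after seeing the data, the fall of Dusp1 in IKKβ-/- mice was -0.15 (adjusted p = 0.88). The score itself did not overlap between these groups, so this fit cannot separate it from the infusion. With this covariate 98 genes in all were called for Ang II in IKKβ-/- mice, against 785 without it. The part of the immediate early genes in the level of Dusp1 was not tested.

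Dusp4 (ENSMUSG00000031530.6, chromosome 8, 34807297 to 34819894) encodes a nuclear phosphatase of ERK, JNK and p38 and was the least abundant of the 10 genes. Saline-infused IKKβ-/- mice had 4.83, 8.43, 5.41 and 4.35 normalized counts, which rest on 3 to 8 reads. They all lay below the 10 normalized counts of the filter, which Dusp4 passed through mice of the other groups. Ang II-treated IKKβ-/- mice had 12.9, 7.94, 120.4, 120.4 and 34.7, which rest on 10 to 114 reads. The groups overlapped through 1 mouse at 7.94, and mice X2384 and X2385 stood far above the rest. Dusp4 rose, by a log2 fold change of 2.47 ± 0.75 (SE, limma, adjusted p = 0.0823, Benjamini-Hochberg). It was 1.32 without X2384 and X2385, a choice made after seeing the data, and did not pass (adjusted p = 0.41). It also missed the threshold without X2352 (2.47), X2384 (2.04), X2385 (2.04), X2386 (2.48), X2401 (2.41), X2403 (2.65), X2406 (2.46) or X2409 (2.37), at adjusted p between 0.101 and 0.195, and in a fit of these 2 groups alone (adjusted p = 0.171).

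In IKKβ+/+ mice Dusp4 had 14.6, 1.59, 8.81, 18.0 and 24.7 normalized counts with saline and 11.8, 11.7, 14.3, 2.87 and 15.9 with Ang II. These groups overlapped, with a log2 fold change of -0.05 and a 95% interval of -1.53 to 1.43. For Dusp4 the effects of the genotypes differed by 2.53 ± 1.03 (SE) and did not pass (adjusted p = 0.38).

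Adipocyte markers moved with Dusp4. Of the 5 tested, 4 were called higher with Ang II in IKKβ-/- mice, led by Cidec (4.89), Adipoq (4.70) and Plin1 (4.04 on the log2 scale), against 2.59% of all genes called higher. These markers were chosen after their values were seen, so their share called is a description and no test of the list. Their summed level was 1020 to 4241 normalized counts in saline-infused and 2315 to 25080 in Ang II-treated IKKβ-/- mice, and 867 to 8385 and 2530 to 6182 in the corresponding IKKβ+/+ mice. Lep was below the filter. Within the groups Dusp4 and the adipocyte score had r = 0.86 over the 19 mice (Spearman 0.88, r = 0.78 without the 2 farthest mice). The genes most like Dusp4 were Plin1 (r = 0.91), Cebpa (0.90) and Slc36a2 (0.89). In a fit with the adipocyte score as a covariate, which was added after the data were seen, the log2 fold change of Dusp4 was -0.10 (adjusted p = 0.972). In the same fit Dusp1 had -1.44 (adjusted p = 0.216). The score overlapped little between these groups, at -2.90 to 0.28 in saline-infused and -0.25 to 4.07 in Ang II-treated IKKβ-/- mice. With this covariate 11 genes in all were called for Ang II in IKKβ-/- mice, against 785 without it. Smooth muscle markers ran opposite to Dusp4, with r = -0.74 between Dusp4 and their score (Spearman -0.77, r = -0.64 without X2380 and X2384). They summed to 426200 to 583400 normalized counts in saline-infused and 304400 to 544600 in Ang II-treated IKKβ-/- mice, and to 331000 to 438700 and 458900 to 633500 in IKKβ+/+ mice. Their part in the level of Dusp4 was not tested.

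**Figure D2:**
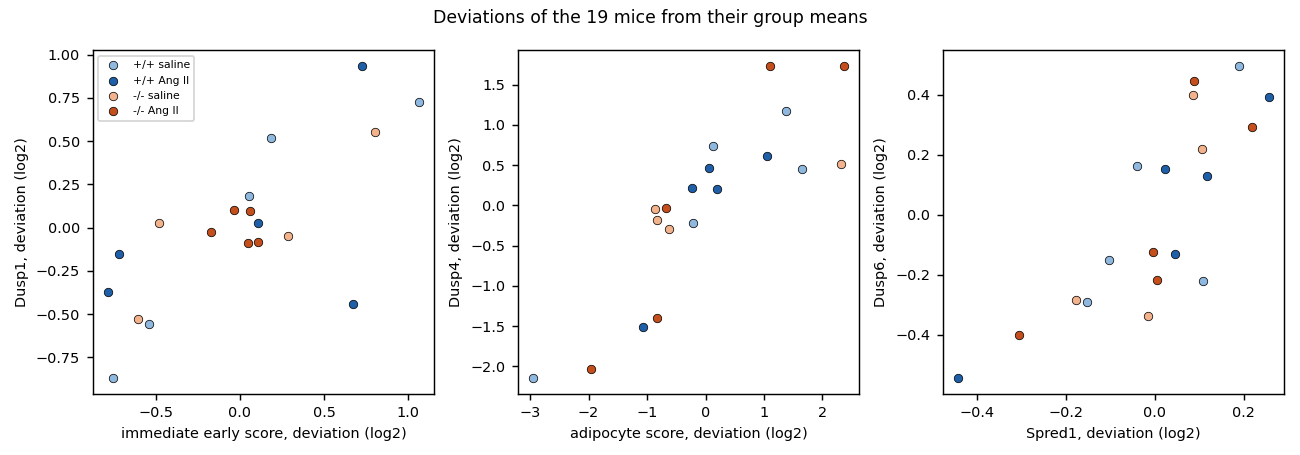
Deviations of the 19 mice from their group means on the log2 scale, for Dusp1 against the immediate early score, Dusp4 against the adipocyte score and Dusp6 against Spred1. Points rise together in each panel, with r of 0.74, 0.86 and 0.80, and the 5 Ang II-treated IKKβ-/- mice lie close to 0 for Dusp1.

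Dusp5 (ENSMUSG00000034765.6, chromosome 19, 53529109 to 53542431), a phosphatase specific for ERK, varied widely among Ang II-treated IKKβ+/+ mice. They had 492.7, 61.9, 87.8, 224.5 and 196.8 normalized counts. Saline-infused IKKβ+/+ mice had 47.3, 81.0, 67.9, 57.0 and 52.6. The level was above every saline-infused mouse in 4 of the 5 Ang II-treated ones, and the mouse at 61.9 lay among them. A log2 fold change of 1.44 ± 0.53 (SE) did not pass with limma (adjusted p = 0.127, Benjamini-Hochberg). The edgeR quasi-likelihood test on the recovered reads gave 1.80 (adjusted p = 0.0381) and DESeq2 gave 1.80 (adjusted p = 0.00412), and both called it. With limma it passed without X2352, X2356 or X2406, at adjusted p of 0.0621, 0.075 and 0.0469, and log2 fold changes of 1.79, 1.66 and 1.44. It also passed in a limma fit of the 2 IKKβ+/+ groups alone (1.44, adjusted p = 0.0758). The same held with the immediate early score as a covariate, a fit added after the data were seen (1.66, adjusted p = 0.0461). Mouse X2356, on which calls of Dusp5, Dusp6 and Spry2 turn, had 6150 normalized counts summed over markers of sympathetic neurons, where the other 18 mice had 535.1 to 1881. Of the 6 neuron markers, 1 passed the filter. Its Schwann cell markers summed to 1873, against 303.1 to 392.8 in the others of its group. That was not the highest sum, since Ang II-treated IKKβ-/- mice had 827.8 to 2150. The part of these markers was not tested.

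Dusp5 in IKKβ-/- mice had 78.2, 65.3, 9.01 and 92.9 normalized counts with saline and 66.5, 48.4, 29.6, 43.4 and 34.7 with Ang II. The groups overlapped, with a log2 fold change of -0.11 and a 95% interval of -1.29 to 1.08. The saline-infused mouse at 9.01 is X2406. Among Ang II-treated mice, Dusp5 had a mean of 44.5 ± 14.3 (SD, n = 5) in IKKβ-/- and 212.7 ± 171.1 (SD, n = 5) in IKKβ+/+ mice. This log2 fold change of -1.91 ± 0.53 (SE) did not pass (limma, adjusted p = 0.17). It passed without X2356, X2380 or X2406 (-2.14, -2.07 and -1.91, adjusted p = 0.074, 0.0971 and 0.0713) and with DESeq2 (-2.25, adjusted p = 0.00186). Its Ang II effects differed between the genotypes by -1.54 ± 0.78 (SE, adjusted p = 0.467).

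Dusp6 (ENSMUSG00000019960.8, chromosome 10, 99263231 to 99267489) encodes a cytoplasmic phosphatase specific for ERK and is a standard readout of the pathway. Saline-infused IKKβ+/+ mice had 382.7, 347, 599.2, 364.6 and 475 normalized counts and Ang II-treated ones 207.8, 337.3, 398.2, 277.1 and 332. These overlapped, with the 4 lowest of the 10 values in Ang II-treated mice and the 2 highest in saline-infused mice. The log2 fold change was -0.48 ± 0.21 (SE) and did not pass (adjusted p = 0.186), though it passed without X2356 (-0.58, adjusted p = 0.0995). Dusp6 in IKKβ-/- mice had 393.8, 236, 347.7 and 245.3 with saline and 269.9, 306.4, 486, 327.6 and 437 with Ang II, a log2 fold change of 0.26 ± 0.22 (SE, adjusted p = 0.59). Between the genotypes the effects on Dusp6 differed by 0.74 ± 0.30 (SE) and did not pass (limma, adjusted p = 0.375).

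Sprouty proteins bind components of the Ras pathway and block its activation by receptor tyrosine kinases. Spry2 (ENSMUSG00000022114.5, chromosome 14, 105891947 to 105896819) fell with Ang II in IKKβ-/- mice. Saline-infused IKKβ-/- mice had 343.6, 344.5, 342.3 and 267 normalized counts, and Ang II-treated ones had 203.3, 157.2, 157.4, 221.6 and 277.6. The groups overlapped through 1 mouse of each, the saline-infused mouse at 267 and the Ang II-treated mouse at 277.6. The log2 fold change was -0.70 ± 0.20 (SE, limma, adjusted p = 0.0684, Benjamini-Hochberg). It missed the threshold without X2383 (-0.61), X2384 (-0.61), X2401 (-0.67), X2403 (-0.67) or X2406 (-0.67), at adjusted p between 0.108 and 0.157, and in a fit of these 2 groups alone (adjusted p = 0.123).

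In IKKβ+/+ mice Spry2 moved the other way without passing. Saline-infused mice had 153.7, 223.9, 239.7, 252.6 and 215.2 normalized counts and Ang II-treated mice 434.9, 237, 216.1, 301 and 274.3. The groups overlapped, with a log2 fold change of 0.41 ± 0.19 (SE, adjusted p = 0.234). For Spry2 the effects of the genotypes differed by -1.10 ± 0.28 (SE), the smallest p of the 10 genes in this comparison. It did not pass with limma (adjusted p = 0.242, Benjamini-Hochberg) but passed with DESeq2 (-1.11, adjusted p = 0.0285) and with limma without X2356 (-1.20, adjusted p = 0.0964). With saline, Spry2 was higher in all 4 IKKβ-/- mice than in all 5 IKKβ+/+ mice, by 0.59 ± 0.20 (SE, adjusted p = 0.119). That comparison and the Ang II response of IKKβ-/- mice share the saline-infused IKKβ-/- mice.

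Spry4 (ENSMUSG00000024427.7) had 171.7, 175.5, 239.7, 191.8 and 230.3 normalized counts in saline-infused and 266.7, 263.6, 243.5, 328.7 and 236.6 in Ang II-treated IKKβ+/+ mice. Only the Ang II-treated mouse at 236.6 lay below a saline-infused one, that at 239.7. For Spry4 the log2 fold change was 0.41 ± 0.17 (SE) and did not pass (adjusted p = 0.177), but it passed with array quality weights (0.45, adjusted p = 0.0499) and in a fit of these 2 groups alone (adjusted p = 0.0831). Spry4 in IKKβ-/- mice ranged from 147.7 to 204.4 with saline (median 168.2) and from 150.9 to 303.2 with Ang II (median 210.3). That log2 fold change was 0.25 (95% interval -0.13 to 0.62).

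Spry1 (ENSMUSG00000037211.12, chromosome 3, 37639947 to 37644598) had no call in any comparison. It ranged from 249.7 to 458.9 normalized counts in saline-infused and from 316.1 to 532.6 in Ang II-treated IKKβ+/+ mice. Its range in IKKβ-/- mice was 163.3 to 361.9 with saline and 160.8 to 501 with Ang II. The log2 fold change with Ang II was 0.23 (95% interval -0.30 to 0.76) in IKKβ+/+ and 0.44 (-0.12 to 1.01) in IKKβ-/- mice. The 3 Sprouty genes had different signs in IKKβ-/- mice, with Spry2 alone passing.

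Spred proteins bind neurofibromin and bring it to Ras, which it inactivates. Spred1 (ENSMUSG00000027351.14, chromosome 2, 117121374 to 117182279) and Spred2 (ENSMUSG00000045671.17, chromosome 11, 19924375 to 20024026) had no call in the 5 comparisons with limma as fitted to all mice with equal weights. The 95% interval of the Ang II effect was -0.46 to 0.05 for Spred1 and -0.36 to 0.26 for Spred2 in IKKβ+/+ mice. For IKKβ-/- mice it was -0.11 to 0.43 for Spred1 and -0.22 to 0.44 for Spred2. With saline, Spred1 had 974.3, 941.6, 1194, 1130 and 1019 normalized counts in IKKβ+/+ mice and 894.7, 834.4, 908 and 745.3 in IKKβ-/- mice. These groups did not overlap, and the log2 fold change of -0.31 ± 0.13 (SE) did not pass (adjusted p = 0.19), though it passed with array quality weights (-0.29, adjusted p = 0.0924).

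Etv5 (ENSMUSG00000013089.15, chromosome 16, 22381309 to 22439719) encodes an ETS factor whose mRNA follows ERK activity in many tissues. With saline it had 108.5, 110.4, 163.9, 121.5 and 128.3 normalized counts in IKKβ+/+ mice and 88.8, 91.7, 88.3 and 80.6 in IKKβ-/- mice. The groups did not overlap, and the IKKβ-/- mice lay within a narrow range. Its log2 fold change was -0.52 ± 0.25 (SE) and did not pass (adjusted p = 0.256), though it passed in a fit of these 2 groups alone (adjusted p = 0.089). With Ang II it ranged from 77.4 to 150.3 in IKKβ+/+ and from 45.3 to 120.6 in IKKβ-/- mice. The log2 fold change with Ang II was -0.35 (95% interval -0.83 to 0.13) in IKKβ+/+ and 0.02 (-0.49 to 0.53) in IKKβ-/- mice. Its close relative Etv4 was below the filter.

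No member had groups without overlap for Ang II against saline in IKKβ+/+ mice, against 8.42% of all genes. Of the 3 genes that passed for Ang II against saline in IKKβ-/- mice, Dusp1 alone had groups that did not overlap, which 5.29% of all genes had. In IKKβ+/+ mice Dusp5, Dusp6, Spry2 and Spry4, 4 of the 10, had an unadjusted p under 0.05 with limma, against 20.3% of all genes. There edgeR called 1 of the 10 among 1373 genes in all, and DESeq2 1 among 1887 genes in all. It was Dusp5 in both. For the difference between the effects limma called 0% of all genes and none of the 10, though Dusp1, Dusp4, Dusp6 and Spry2, and 11.1% of all genes (1654), had an unadjusted p under 0.05. In that comparison edgeR called 3 genes and none of the 10, and DESeq2 called 279 genes with Dusp1, Dusp4, Dusp5 and Spry2 among them. Between the genotypes with saline, 5.47% of all genes and none of the 10 were called, and 6 of the 10 (Dusp1, Dusp6, Spry1, Spry2, Spred1 and Etv5) had an unadjusted p under 0.05, against 19.2% of all genes. With saline edgeR called none of the 10 and 835 genes in all, and DESeq2 called Spry2 and 1437 genes in all. The groups did not overlap for 3 of the 10 genes with saline, Spry2, Spred1 and Etv5, against 8.76% of all genes. Between the genotypes with Ang II, 0.128% of all genes and none of the 10 were called by limma, and 5 of the 10 had an unadjusted p under 0.05, against 14.3% of all genes. There edgeR called none of the 10 and 16 genes in all, and DESeq2 called Dusp4 and Dusp5 and 521 genes in all. With Ang II the groups of the genotypes did not overlap for 1 of the 10, Dusp1, against 1.54% of all genes.

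**Figure D3:**
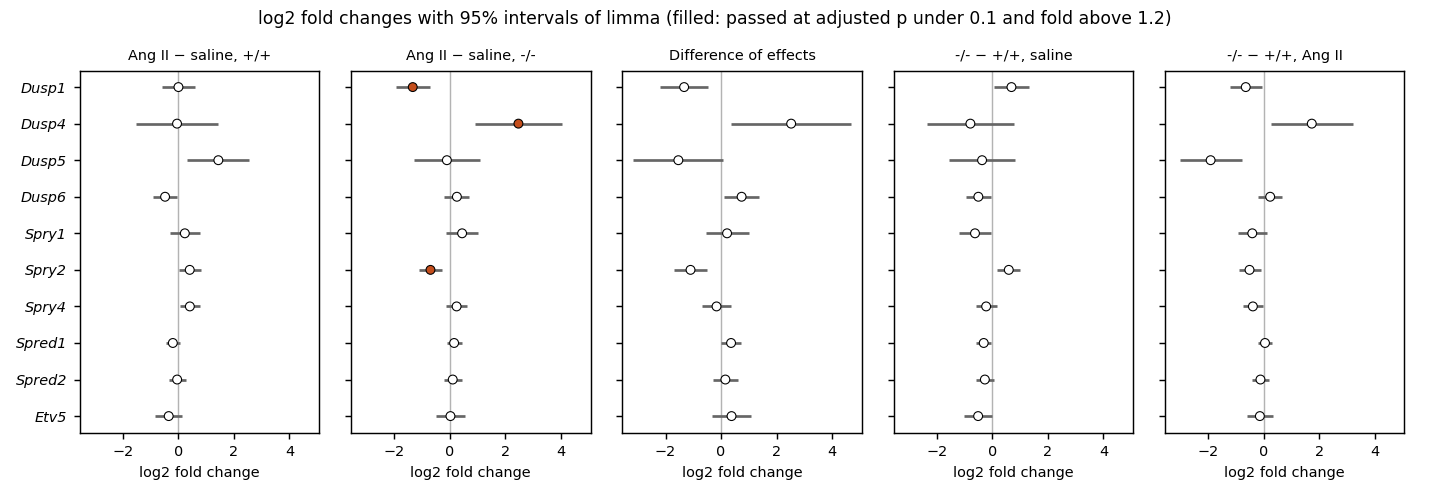
log2 fold changes of the 10 genes with their 95% intervals from limma, in the 5 comparisons. Filled points passed the test, and they are Dusp1 at -1.34, Dusp4 at 2.47 and Spry2 at -0.70 for Ang II against saline in IKKβ-/- mice.

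From mouse to mouse, some of the 10 genes varied together and others did not. Over the 19 mice, with the group means removed, Dusp6 and Spred1 had the highest Pearson r of the pairs at 0.80 (Spearman 0.76, r = 0.73 without the 2 mice farthest from the median of Spred1). Spred1 and Etv5 had 0.61 (Spearman 0.51, r = 0.36 without X2356 and X2380), Spred2 and Etv5 0.59, and Spry1 and Etv5 0.58. Dusp5 ran opposite to Spred1 (-0.57) and to Dusp6 (-0.54). Dusp1 had an r between -0.37 and 0.26 with the other members. These points share library, depth and tissue makeup, and the values are given as a description without a test. Dusp6 and Spry1 had r of 0.65 and 0.66 with the score of fibroblast markers, and Spred1 and Etv5 had 0.69 each, which were 0.34 and 0.35 without mice X2350 and X2380. The fibroblast markers summed to 108800 to 154300 normalized counts in saline-infused and 77540 to 135500 in Ang II-treated IKKβ+/+ mice, and to 92810 to 124300 and 63040 to 153000 in IKKβ-/- mice. Their part in the levels of Dusp6, Spred1, Etv5 and Spry1 was not tested. Nor was that of smooth muscle markers, whose score had r of -0.61 with Dusp6 (Spearman -0.53, r = -0.47 without X2380 and X2384).

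**Figure D4:**
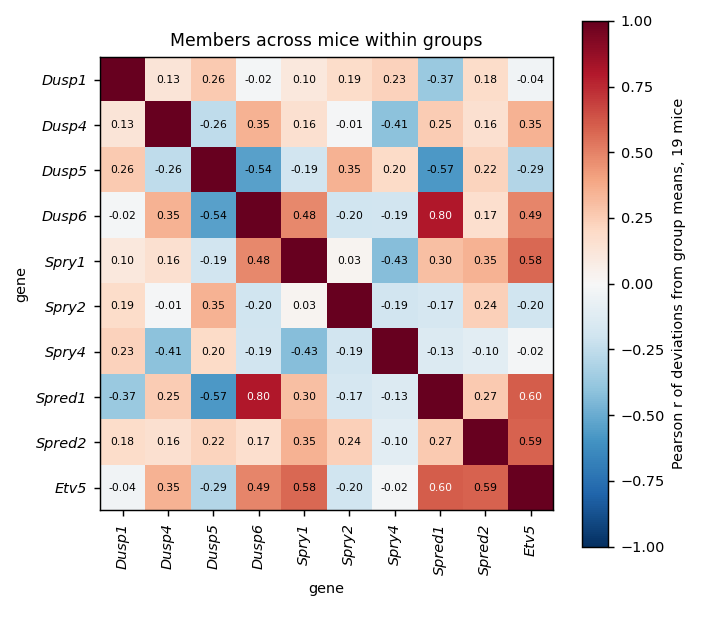
Pearson r between the 10 genes over 19 mice, computed from deviations from the group means on the log2 scale (color from -1 to 1). The pair of Dusp6 and Spred1 stands highest at 0.80, and Dusp5 with Spred1 lowest at -0.57.

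Among the other MAP kinase phosphatases, 3 of the 5 tested (Dusp8, Dusp10 and Dusp16) fell with Ang II in IKKβ-/- mice, where 2.69% of all genes were called lower, and none passed in IKKβ+/+ mice, where 8.66% were called. These enzymes act mainly on JNK and p38. Dusp8 had 2208, 2119, 1180 and 2329 normalized counts in saline-infused and 751.3, 756.4, 480.7, 513.8 and 303.3 in Ang II-treated IKKβ-/- mice. The groups did not overlap, with a log2 fold change of -1.83 ± 0.32 (SE, limma, adjusted p = 0.00585, Benjamini-Hochberg). Dusp16 went from 682.6 ± 129.2 (SD, n = 4) to 339.4 ± 49.4 (SD, n = 5), at -0.998 ± 0.16 (SE, adjusted p = 0.00404), and Dusp10 fell by 1.36 (adjusted p = 0.0389). The difference between the Ang II effects did not pass for Dusp8 (-1.98, adjusted p = 0.215), Dusp10 (-1.55, adjusted p = 0.282) or Dusp16 (-0.77, adjusted p = 0.269). The median log2 fold change of the 5 was -0.998 in IKKβ-/- mice, where that of all genes was -0.003. Dusp7, a cytoplasmic ERK phosphatase like Dusp6, had -0.23 (adjusted p = 0.386), Dusp2 had 1.11 (adjusted p = 0.604), and Dusp9 was below the filter.

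**Figure D5:**
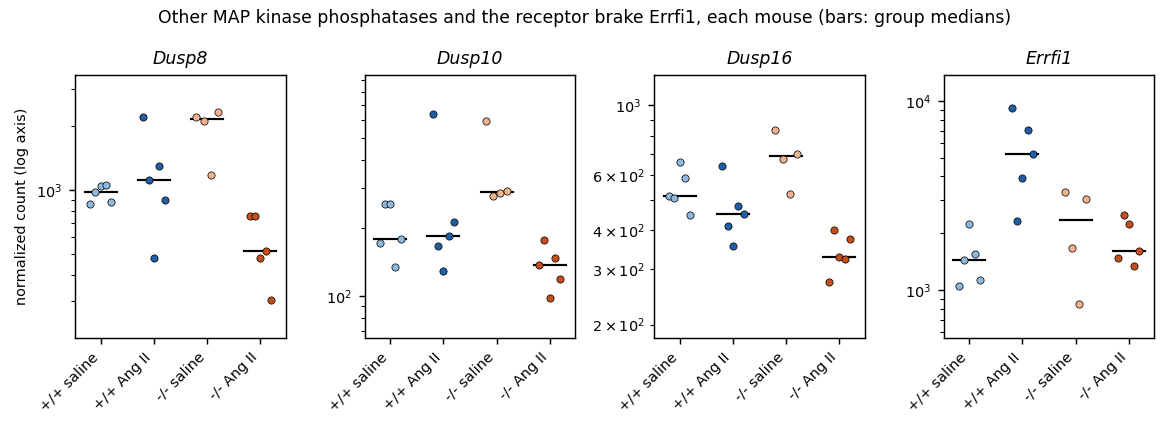
Normalized counts (log axis) of Dusp8, Dusp10, Dusp16 and Errfi1 in each mouse, with bars at the group medians. The Ang II-treated IKKβ-/- mice lie below the saline-infused IKKβ-/- mice for the 3 phosphatases, and the 5 Ang II-treated IKKβ+/+ mice lie above every saline-infused IKKβ+/+ mouse for Errfi1.

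Of the other brakes on receptor or Ras signalling, 2 of 12 tested rose with Ang II in IKKβ+/+ mice and none fell, where 4.33% of all genes were called higher. Errfi1, which encodes an inhibitor of the EGF receptor, had 1047, 1447, 2237, 1551 and 1136 normalized counts with saline and 9230, 2326, 3917, 7039 and 5229 with Ang II. The groups did not overlap, at a log2 fold change of 1.80 ± 0.36 (SE, limma, adjusted p = 0.0102, Benjamini-Hochberg). Dok1, an adaptor that recruits the Ras inhibitor RasGAP, rose by 0.52 (adjusted p = 0.0204). No brake of this list passed with Ang II in IKKβ-/- mice. The difference between the Ang II effects passed for none of the 12 with limma. Il17rd, known as Sef and an inhibitor of FGF signalling, was lower by 1.16 on the log2 scale in saline-infused IKKβ-/- than IKKβ+/+ mice (log2 fold change -1.16, adjusted p = 0.0633). Spry3 is not among the genes of the table.

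Upstream of the brakes, 2 of 18 growth factor ligands rose and 1 fell with Ang II in IKKβ+/+ mice, where 4.33% of all genes were called higher and 4.33% lower. In IKKβ-/- mice 2.59% were called higher and 2.69% lower, and nothing is read from 1 call in a list of 10 to 18 genes. Hbegf, a ligand of the EGF receptor, had a log2 fold change of 1.01 (adjusted p = 0.0965), Igf1 of 0.64 (adjusted p = 0.0472) and Pdgfd of -0.50 (adjusted p = 0.0705). Igf1 was the single ligand called in IKKβ-/- mice, at 0.63 (adjusted p = 0.0791). Of 14 receptors, Fgfr3 fell in IKKβ+/+ mice (-0.79, adjusted p = 0.0744) and Kdr rose in IKKβ-/- mice (1.79, adjusted p = 0.099). Hras (0.62, adjusted p = 0.0351) and Shc1 (0.27, adjusted p = 0.0961) of 10 adaptors and Ras genes rose in IKKβ+/+ mice, and Map2k2 (0.39, adjusted p = 0.0794) of 11 kinases of the cascade. Rps6ka2, a kinase activated by ERK, was lower with saline in IKKβ-/- than in IKKβ+/+ mice (-0.77, adjusted p = 0.093). Of 14 other ERK-responsive genes tested, Myc rose (1.62, adjusted p = 0.0507) and Epha4 fell (-0.95, adjusted p = 0.00762) in IKKβ+/+ mice, and Ier3 fell in IKKβ-/- mice (-1.71, adjusted p = 0.0638).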

How the data were processed

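Expression in the SRA was read from 1 table of 20408 genes in 19 mice. Per the study's methods, poly(A), stranded libraries were trimmed (Trimmomatic 0.35), aligned to GRCm38 (STAR 2.7.1a), counted on Gencode genes and normalized (DESeq2 1.30.1). The deposited signal is the normalized count that resulted, reads over the size factor of the mouse. Within a tolerance of 0.02 reads, 100% of the values came out as whole reads. For X2359 1 read is worth 0.994, near 1, which makes this a weaker check there. On those reads edgeR called 1373 and 722 genes, and DESeq2 1887 and 1164, for Ang II against saline in IKKβ+/+ and IKKβ-/- mice. In 36 pairs of mice within groups no library repeated another.

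A gene was tested when 4 or more mice had 10 or more normalized counts. The test was that of limma 3.58.1 in R 4.3.3 (linear model with 1 mean for each of the 4 groups, moderated with a trend), two-sided, on log2(normalized count + 1), which pulls the fold change of low genes toward 0. Adjustment was by Benjamini-Hochberg over all genes tested. The threshold was that of the study's methods: fold change over 1.2 and adjusted p below 0.1. P-values set a difference between groups against the spread between mice, which the fit estimates over the 4 groups together. The fit was run on simulated counts with known changes, for Ang II against saline in IKKβ-/- mice alone. That run held large changes only and did not cover the difference between the effects of the genotypes. The 10 genes and all lists were chosen with earlier results of these data known. All 10 are named, with the called genes of the other pathway lists (at most 3 per list, by size of change) and the 3 genes of highest likeness with a mean of at least 50. Marker genes, and genes named to account for a list (Dusp2, Dusp7, Dusp9, Etv4, Lep and Spry3), were chosen after their values were seen.

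Alternatives changed the pseudocount to 4, dropped the filter, fitted only the groups compared, used array quality weights, used TMM scaling, ran the quasi-likelihood test of edgeR 4.0.16 or DESeq2 1.42.0 on the reads, tightened either threshold (adjusted p below 0.05, fold over 1.5), or left out each mouse. Both score covariates and the fit without X2384 and X2385 were added after the data were seen. Promoters are those of RefSeq for GRCm38.p6.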

Additional observations from a re-analysis of the deposited data

Results flagged for a closer look

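Within groups, 4 of 40 combinations of gene and group held a mouse far from the others, where chance gives about 1 in 20 if values are normally distributed. The rule was applied to normalized counts and not on the log2 scale, where the mice flagged can differ, so no excess over chance is read from it. Dusp1 was 4629 normalized counts in the Ang II-treated IKKβ+/+ mouse X2350, with the next at 2470. Etv5 was 150.3 in the Ang II-treated IKKβ+/+ mouse X2356, with the next at 94.99. In X2356 markers of sympathetic neurons summed to 6150 normalized counts, against 535.1 to 1881 in the other mice. Schwann cell markers summed to 1873 there, against 303.1 to 392.8 in the others of its group and 827.8 to 2150 in Ang II-treated IKKβ-/- mice. The part of these markers was not tested. Spred2 was 471.4 in the saline-infused IKKβ+/+ mouse X2373, with the next at 402.5. Spry2 was 267 in the saline-infused IKKβ-/- mouse X2409, with the next at 342.3. Without X2409, Spry2 passed for the genotypes with saline (log2 fold change 0.68, adjusted p = 0.0698, limma).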

How the results depend on the processing

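The cause of the changes below was not tested. Counts of the 10 genes called depended on the fit. For Ang II in IKKβ+/+ mice it was 1 with array quality weights, edgeR, DESeq2 and the immediate early covariate, 2 with only the groups compared, and 0 to 2 with a mouse left out. In IKKβ-/- mice it was 1 with only the groups compared, without X2384 and X2385 and at an adjusted p under 0.05, 0 with either covariate, and 1 to 3 with a mouse left out. For the difference it was 4 with DESeq2 and 0 to 1 with a mouse left out. For the genotypes with saline it was 3 with array weights (Dusp1, Spry2 and Spred1), 2 with only the groups compared (Spry2 and Etv5), 1 with DESeq2 (Spry2) and 0 to 1 with a mouse left out, and with Ang II 2 with DESeq2 and 0 to 1 with a mouse left out.

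Counts over all genes were, in IKKβ+/+ mice, 2074 with array weights, 638 at 0.05, 752 above 1.5-fold and 431 (without X2350) to 1918 with a mouse left out. In IKKβ-/- mice they were 295 with only the groups compared, 271 without X2384 and X2385, 11 and 98 with the adipocyte and immediate early covariates, 412 at 0.05 and 433 (without X2406) to 1082. For the difference they were 76 with array weights, 3 with edgeR, 279 with DESeq2 and 0 to 79. With saline they were 1902 with array weights, 1420 with only the groups compared, 1437 with DESeq2, 512 and 1333 with the covariates, 136 at 0.05, 504 above 1.5-fold and 24 to 1727. With Ang II they were 1 with only the groups compared and without X2384 and X2385, 521 with DESeq2, 0 with either covariate and at 0.05, and 0 to 553.

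Signs of log2 fold changes that passed in neither fit changed as follows. With array weights Dusp1 (0.002) and Dusp4 (0.055) turned in IKKβ+/+ mice, Dusp5 (0.069) with saline and Spred2 (0.031) with Ang II. Dusp5 with saline also turned with edgeR (0.044) and DESeq2 (0.024). Without X2384 and X2385, in IKKβ-/- mice Dusp5 was 0.062 and Etv5 -0.16, and Spry1 -0.026 for the difference. With the adipocyte covariate Dusp5 was 0.23 and Etv5 -0.13 in IKKβ-/- mice, and Dusp4 0.43 with saline. With the immediate early covariate Dusp1 was 0.16 in IKKβ+/+ mice, Dusp5 1.55 and Etv5 -0.11 in IKKβ-/- mice, and Spred1 -0.021 with Ang II. Dusp4 in IKKβ-/- mice, called otherwise, was -0.10 with the adipocyte covariate. With a mouse left out, signs crossed in IKKβ+/+ mice for Dusp1 (-0.24 to 0.18), Dusp4 (-0.59 to 0.33) and Spred2 (-0.13 to 0.042), in IKKβ-/- mice for Dusp5 (-0.85 to 0.23) and Etv5 (-0.086 to 0.26), for Dusp5 with saline (-0.70 to 0.37), and with Ang II for Spred1 (-0.065 to 0.12), Spred2 (-0.22 to 0.003) and Etv5 (-0.25 to 0.10). No paired analysis was possible because the groups shared no mouse numbers.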

Other observations

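Of 8 glucocorticoid-induced genes, 4 rose with Ang II in IKKβ+/+ mice (limma, Benjamini-Hochberg), where 4.33% of all genes were called higher. The metallothioneins Mt2 and Mt1 rose, with log2 fold changes of 2.82 (adjusted p = 0.00407) and 1.503 (adjusted p = 0.0153). In IKKβ-/- mice Mt2 rose (1.84, adjusted p = 0.053) and the clock gene Per1 fell (-1.43, adjusted p = 0.0308). Per1 was also higher with saline in IKKβ-/- than in IKKβ+/+ mice (1.56, adjusted p = 0.0464). The difference between the Ang II effects passed for none of the 8 genes.

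The genes most like the other members from mouse to mouse, by Pearson r of deviations from the group means over 19 mice, were Ctdp1 (0.91), Btaf1 (0.89) and Csrnp1 (0.88) for Dusp5, and Lvrn (0.82), Fxyd6 (0.81) and Bicc1 (0.81) for Dusp6. For Spry1 they were Mfap4 (0.81), Cpxm2 (0.81) and Wnt5a (0.80), for Spry2 Zfp948 (0.79), Abi1 (0.79) and BC005537 (0.77), and for Spry4 Dmwd (0.78), Rars (0.76) and Cnot9 (0.75). For Spred1 they were R3hcc1l (0.91), Wipf1 (0.88) and Lpar1 (0.87), for Spred2 Hexim1 (0.94), Prkar1b (0.83) and Rpl7 (0.82), and for Etv5 Slc49a4 (0.89), Gria4 (0.86) and Map1lc3b (0.85).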
